A study of Mus musculus with 2 samples.

Results

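The microRNA processing and silencing machinery was taken as 10 genes, Drosha, Dgcr8, Xpo5, Dicer1, Tarbp2, Ago1, Ago2, Ago3, Ago4 and Mov10, out of 20659 gene symbols that the array probes matched. Its members were the non-control probes whose accession belongs to 1 of these genes, which gave 14 of 39427 probes. Drosha, Ago1, Ago2 and Ago4 had 2 probes each and the other 6 genes had 1. All 14 probes were well above background on both arrays by the flag of the scanner software, and each was printed as 1 spot per array. The cells were RAW246.1, macrophages by their labels, kept in DMEM, and their Cy3-labelled RNA went onto 2 one-colour Agilent mouse arrays. Both lay on 1 slide at different positions, so position and treatment cannot be told apart. The PBS culture was the mock control, and the other culture received synthetic miR-122, for which the protocol gives 5 μg/mL. The title of the miR-122 sample reads as though miR-122 had been omitted, and the same treatment text stands on both samples, so directions rest on the source name and description. With 1 array per group there is no replicate, no test and no p-value, and fewer cells of a type and less RNA per cell cannot be told apart.

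MicroRNAs are short RNAs that guide Argonaute proteins to messenger RNAs and repress them. Their primary transcripts are cut in the nucleus by Drosha and its partner Dgcr8, the hairpin precursors leave through exportin-5, encoded by Xpo5, and Dicer1 with its partner Tarbp2 trims them to the mature duplex that an Argonaute takes up. Ago2 can itself cut a target, while Argonautes otherwise act through GW182 proteins, deadenylases and decapping enzymes. Mov10 is an RNA helicase that associates with Argonautes and, in human cells, restricts retroviruses and retrotransposons. In macrophages, microRNAs restrain or sustain inflammatory gene expression. A synthetic microRNA added to cells does not need the nuclear steps but still needs an Argonaute to repress messenger RNAs in this way. Whether the added miR-122 acted in this way was not measured here.

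Mov10 stood far above the other members, and the genes that cut, export and load microRNAs differed little between the arrays. Mov10 was 4.54-fold higher on the miR-122 array. It was the only 1 of the 10 genes, and its probe the only 1 of the 14 probes, past 2-fold in either direction. Well above background on both arrays were 26625 probes, of which 4.09% reached 2-fold higher, 1.33% reached 2-fold lower and 94.6% stayed within 2-fold. For the 15022 genes with such probes these shares were 4.57%, 1.78% and 93.6%. With median scaling the higher and lower probes numbered 750 and 625, and with quantile normalization 830 and 499, in place of 1089 and 355. The next highest member gene was Tarbp2, 1.97 below Mov10 on the log2 scale. The median difference over the 10 genes was -0.15, and -0.21 without Mov10, against 0.09 over all genes. Differences are log2, miR-122 minus PBS, after the 75th percentile of each array was subtracted. That percentile was lower by 0.28 with miR-122 before scaling, so an unscaled signal can be lower there while the scaled difference is near 0.

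**Figure D1:**
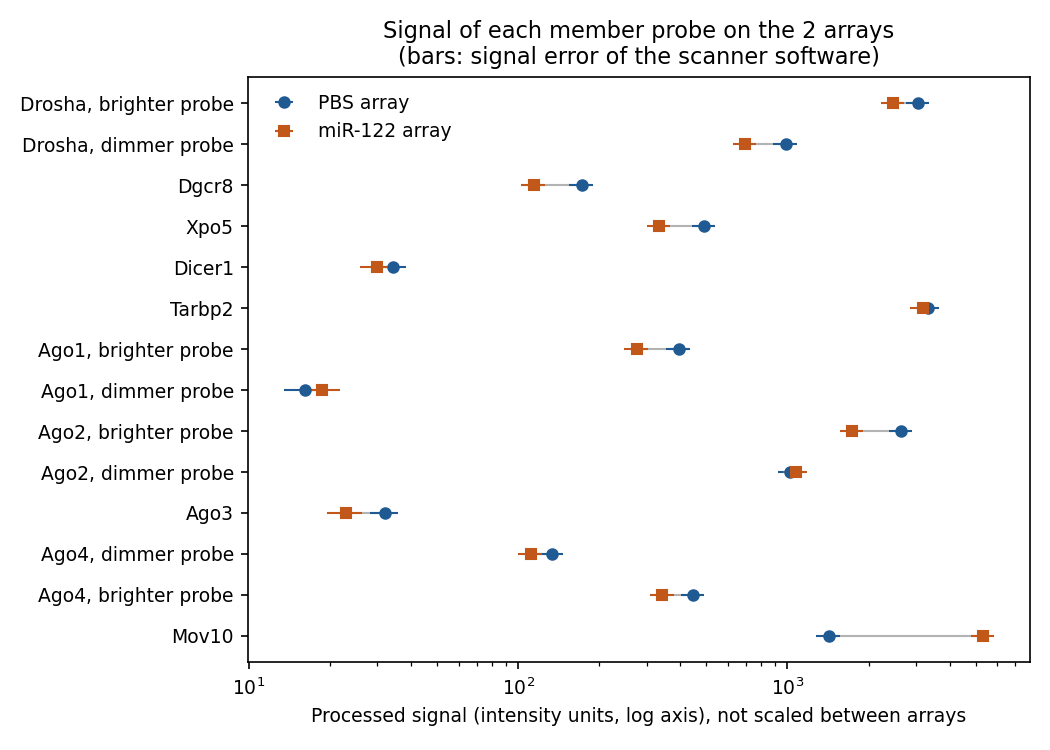
Processed signal of each member probe, in intensity units on a log axis, on the PBS array (circles) and the miR-122 array (squares), with the signal error estimated by the scanner software as bars and 1 spot per point. Mov10 went from 1422 to 5328, while 11 of the 13 other probes had a lower unscaled signal on the miR-122 array; levels of different probes are not comparable.

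Drosha, the nuclear ribonuclease, had nearly equal scaled signals on both arrays. Its brighter probe read 3051 ± 305 intensity units with PBS and 2464 ± 246.5 with miR-122, where ± is the error estimated by the scanner software. After scaling the difference was -0.03 ± 0.20. Its dimmer probe read 986 and 696, a scaled difference of -0.23, and so both probes were slightly below 0. The gap of 0.20 between them was smaller than its software error of 0.29. For bright probes such as these, the software error was close to a fixed share of the signal. The median gap over genes with exactly 2 probes was 0.17.

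Dgcr8, the RNA-binding partner of Drosha, read 172 ± 17.3 with PBS and 114 ± 11.7 with miR-122. The scaled difference was -0.32 ± 0.21, or 1.25-fold lower. Among all genes, 14.4% had a lower difference than Dgcr8. Xpo5, the nuclear export receptor for hairpin precursors, read 491 ± 49.1 and 334 ± 33.5, a difference of -0.28 ± 0.20. Both genes therefore lay in the lower part of the distribution of all genes but well short of 2-fold.

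Dicer1, the cytoplasmic ribonuclease that makes the mature duplex, was measured by a dim probe. It read 34.4 ± 4.07 with PBS against 29.8 ± 3.89 with miR-122. The difference was 0.07 ± 0.25, close to the median of all genes, and its sign turned under 4 of 9 other ways of processing, between -0.12 and 0.16. Tarbp2, which encodes the double-stranded RNA-binding partner of Dicer1, read 3322 ± 332 and 3177 ± 318. Its difference was 0.21 ± 0.20, the highest of the members other than Mov10, and 63.6% of all genes had a lower one.

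The 4 Argonaute genes, whose proteins hold the microRNA, were measured by 7 probes with differences between -0.33 and 0.49, of which 4 were negative and 3 positive. Among all probes on both arrays 36.7% were negative. Ago1, Ago3 and Ago4 are neighbours on chromosome 4, and Ago2 lies on chromosome 15. Ago2, the Argonaute that can cleave its target, had probes that went opposite ways. Its brighter probe read 2639 ± 264 with PBS and 1735 ± 174 with miR-122, a difference of -0.33 ± 0.20 and the lowest of any member probe. Its dimmer probe read 1023 ± 102 and 1073 ± 107, a difference of 0.34 ± 0.20. The 2 probes were thus 0.67 apart, more than their software error of 0.29. A wider gap was found in 9.41% of the 3039 genes with exactly 2 such probes, and the median gap was 0.17. The mean over both probes was 0.01, so no direction can be given for Ago2. The files used here do not say which transcript forms the probes detect.

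Ago1 also had probes of opposite sign. Its brighter probe read 395 ± 39.5 with PBS and 275 ± 27.6 with miR-122, a difference of -0.24. Its dimmer probe read 16.2 ± 2.73 and 18.7 ± 3.08 and gave 0.49 ± 0.34. The dim probe thus carried the largest error of the 14. Ago3 was measured by a single dim probe that read 32.0 ± 3.89 and 22.9 ± 3.38, a difference of -0.21 ± 0.28, which became 0.11 with normexp background correction. Ago4 had differences of -0.10 for its brighter probe, which read 446 and 343, and 0.02 for its dimmer probe, which read 133 and 111. Of the 3039 genes with exactly 2 probes, 25.5% had probes of opposite sign, and of the 4 members with 2 probes these were Ago1, Ago2 and Ago4.

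Mov10, the Argonaute-associated helicase, read 1422 ± 142 with PBS and 5328 ± 533 with miR-122. Even without scaling its signal was 3.75 times as high on the miR-122 array. The scaled difference was 2.18 ± 0.20. By this difference Mov10 ranked at place 100 from the highest of 15022 genes. At least 4-fold higher were 0.812% of all genes and 0.747% of all probes. Under 6 other ways of scaling or correcting the arrays, Mov10 was between 4.02-fold and 4.54-fold higher. A single probe and a single spot measured Mov10 on each array, so no second probe checks its value.

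**Figure D2:**
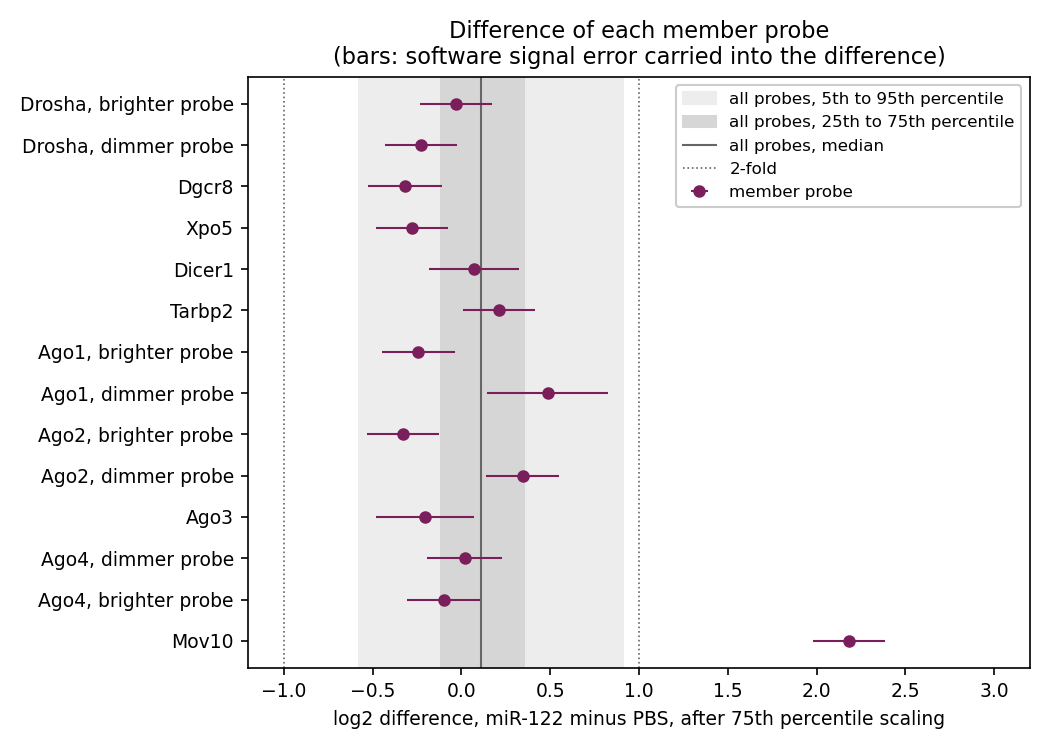
Log2 difference, miR-122 minus PBS, of each member probe after 75th percentile scaling, with the software signal error carried into the difference as bars, on bands for the percentiles of all probes well above background on both arrays and dotted lines at 2-fold. Mov10 lies at 2.18, and the 13 other probes lie between -0.33 and 0.49, all within the 5th to 95th percentile of all probes (-0.58 to 0.91).

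The other 9 members were close to the bulk of the arrays. Their 13 probes all lay between the 5th and the 95th percentile of the differences of all probes, -0.58 and 0.91. The software error of a member difference was between 0.20 and 0.34. Measured from the median of all probes, 0.11, 2 of these 13 probes were more than 2 such errors away, the Dgcr8 probe and the brighter Ago2 probe, as was the Mov10 probe. Of all probes 22.3% were that far away, so this count is no result about the members. Of the 10 genes, each by its brightest probe, 8 lay below the median of all genes. By that probe 7 had a negative difference, as did 39.7% of all genes. The spread between different probes of 1 gene, a pooled SD of 0.30 over the arrays, is of the size of these differences. Probes printed at least 9 times had median SDs between spots of 0.06 on either array. Neither spread includes variation between cultures.

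**Figure D3:**
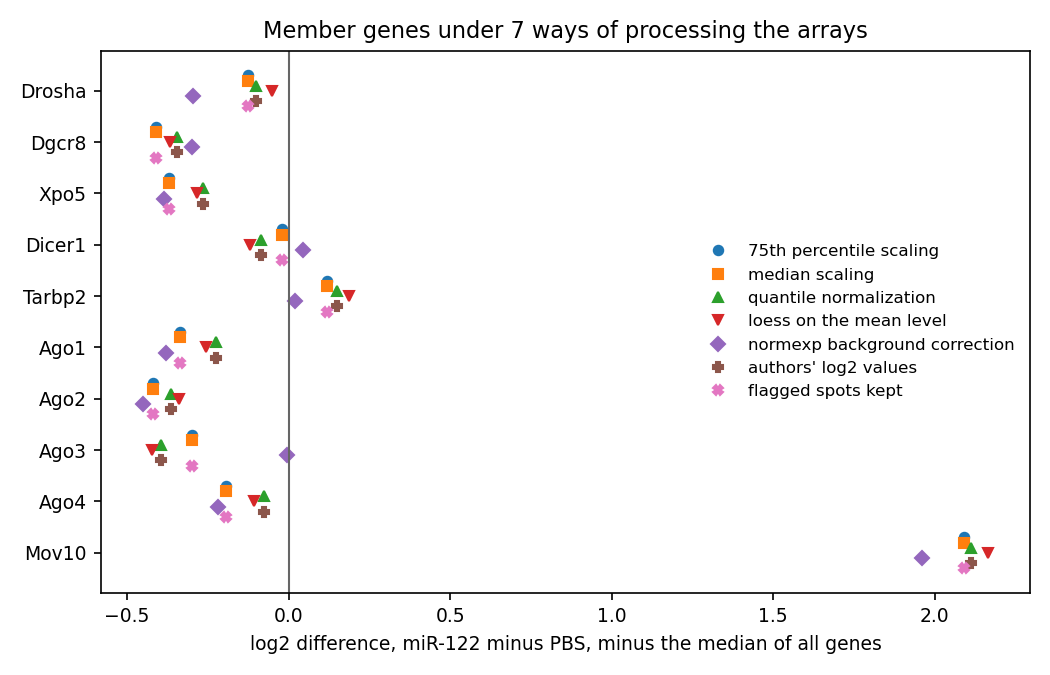
Log2 difference, miR-122 minus PBS, of each member gene minus the median of all genes, under 7 ways of processing the arrays (symbols). Mov10 stays near 2 with every symbol, Tarbp2 stays above 0, and Drosha, Dgcr8, Xpo5, Ago1, Ago2 and Ago4, each by its brightest probe, stay below 0. Measured from this median, median scaling cannot differ from percentile scaling, which keeping flagged spots nearly repeats. The authors' values nearly repeat quantile normalization.

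Relative to the median of all genes, 8 of the 10 members were lower under 6 of the 7 ways of processing and 7 under normexp. All 7 ways read a gene by its brightest probe, so these counts depend on that choice. With the mean over probes, which is not among the 7, the difference itself was 0.12 for Ago1 and 0.01 for Ago2. For Drosha and Ago4 that mean was -0.13 and -0.04. The 6 ways that gave 8 are not separate checks. Measured from the median of all genes, median scaling cannot differ from percentile scaling, and Ago2 had -0.421 under both. Keeping flagged spots also gave Ago2 -0.421. The authors' values nearly repeated quantile normalization, with -0.365 for Ago2 under both. The distinct ways among the 6 were percentile scaling, quantile normalization and loess. Scaling on the median moved every probe by -0.18, and quantile normalization moved the median of all probes by -0.13. Normexp moved that median by 0.02. The authors' deposited log2 values for the Mov10 probe were 10.36 for PBS and 12.44 for miR-122, a difference of 2.08. Dgcr8 had 7.31 and 6.94 there, and Xpo5 8.82 and 8.52. In the authors' values the dim Ago3 probe had a difference of -0.42, as it had with quantile normalization, beyond the -0.21 of the scanner signal.

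Promoters of the members were examined for the letters of interferon response elements. A promoter here is the window of 250 bases before to 50 after an annotated start in RefSeq, assembly GRCm38.p6, which held 11 windows for 9 of the 10 members. Ago2 is not among them. The letters searched on both strands were GAAA followed after any 2 bases by GAAA, the core of the interferon-stimulated response element, and TTCNNNGAA, the core of the gamma-activated site. Neither was found in any of the 11 member windows, the 2 of Mov10 included. Over all 32851 windows, 3.44% held the first and 8.30% the second. At such shares 11 windows can often hold no match, so this absence is no result about the members or Mov10. The median share of G and C was 73.0% over the member windows, against 52.7% over all. The Mov10 windows had 59.0% and 63.3%, and Dgcr8 had 74.3%. With this difference in G and C, the shares over all windows are not a like baseline for the members. The 250 bases before the start are shown for Mov10, the member past 2-fold, at its start farther upstream (chr3:104818564-104818813, minus strand). Those of Dgcr8 (chr16:18289169-18289418, minus strand) are shown as the member with the most negative difference among those with a window. All letters are in lower case because no match was found.
Mov10: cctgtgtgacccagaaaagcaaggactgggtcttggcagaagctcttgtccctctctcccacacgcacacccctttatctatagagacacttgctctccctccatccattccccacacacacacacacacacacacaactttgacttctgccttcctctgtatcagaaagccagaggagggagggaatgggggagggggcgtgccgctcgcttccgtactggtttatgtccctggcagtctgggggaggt
Dgcr8: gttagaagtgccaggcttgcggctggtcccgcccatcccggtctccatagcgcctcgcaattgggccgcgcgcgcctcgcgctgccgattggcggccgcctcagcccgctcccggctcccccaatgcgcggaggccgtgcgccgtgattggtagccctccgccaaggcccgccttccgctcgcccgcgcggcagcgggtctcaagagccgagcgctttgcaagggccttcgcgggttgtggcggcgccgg

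Beyond the 10 members, genes that work with them were described by lists. The members and lists were chosen with earlier results of these data known, so their counts describe these 2 arrays. The lists for proteins held 91 genes well above background on both arrays, of which 7 reached 2-fold higher and 0 reached 2-fold lower, or 7.69% higher against 4.57% of all genes. Their median difference was 0.05, against 0.09 over all genes.

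In the list of microprocessor, nuclear export and primary transcript cofactors, 0 of 17 genes were past 2-fold and the median was 0.04. Of all genes 93.6% stayed within 2-fold. The list's largest differences belonged to Rcc1, the exchange factor that loads the GTPase Ran, at -0.73, and the RNA-binding protein gene Hnrnpa2b1, at 0.55. Rangap1, which encodes the activator of Ran's GTP hydrolysis, had -0.48, and Smad1, a signal transducer that can join the Drosha complex, had 0.31.

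In the list of Dicer partners, Argonaute loading and precursor modification, 3 of 23 genes were at least 2-fold higher, 0 were at least 2-fold lower, and the median was 0.05. Tut7, a terminal uridylyltransferase that tails precursor and messenger RNAs, had levels of 2.75 with PBS and 4.14 with miR-122, 2.63-fold higher, where a level is the log2 signal relative to the 75th percentile of its array. Its relative Tut4 had 0.13 and 0.70, a difference of 0.57, against 0.19 for its other probe. Adar, which edits adenosines in double-stranded RNA including microRNA precursors, had 2.99 and 4.20 and was 2.31-fold higher. Pnpt1, an exoribonuclease of mitochondria, had 2.66 and 3.85 and was 2.29-fold higher. The second probe of Adar differed by 0.94 and that of Pnpt1 by 0.90, both just under 2-fold.

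In the list of silencing effectors that bind Argonaute, deadenylate and decap, 2 of 42 genes were at least 2-fold higher, 0 were at least 2-fold lower, and the median was 0.07. Lsm14a, a P-body protein gene, had levels of 2.69 and 3.96 and was 2.42-fold higher. Dcp2, the decapping enzyme gene, had -1.32 and -0.23 and was 2.13-fold higher, or under 2-fold with normexp and with median scaling. Xrn1, the exonuclease gene that degrades decapped RNA, was 1.89-fold higher and Btg2, which recruits deadenylases, 1.74-fold higher. The GW182 genes Tnrc6a, Tnrc6b and Tnrc6c, whose products bind Argonaute directly, differed by -0.01, -0.01 and -0.27 and were picked once their values had been seen.

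Mov10 belongs to superfamily 1 of RNA helicases, and 2 of its 8 relatives measured on each array reached 2-fold higher. Of all genes 4.57% did so, and this list too was chosen with earlier results of these data known. Znfx1, a helicase gene known in antiviral defence, had levels of 3.95 and 5.80 and was 3.62-fold higher. Helz2, a helicase gene that encodes a coactivator of nuclear receptors, had 2.83 and 4.56 and was 3.32-fold higher. The 6 others were under 2-fold. Among them Dna2, a nuclease and helicase gene of DNA replication, had -0.80. The median of the 8 was -0.10. Of the PIWI clade of Argonautes, which act in the germ line, Piwil2 was well above background on both arrays, with a difference of -0.33.

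**Figure D4:**
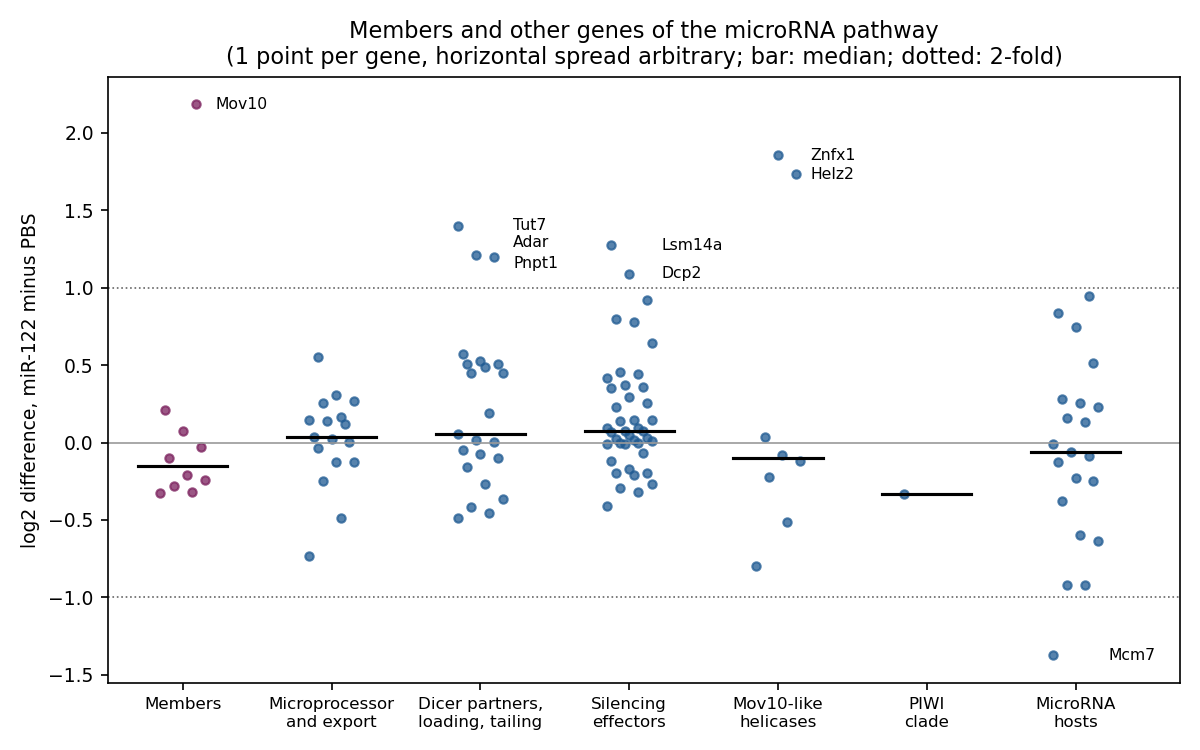
Log2 difference, miR-122 minus PBS, of the 10 member genes and of the genes of each list that were well above background on both arrays, with 1 point per gene, the median as a bar and dotted lines at 2-fold. The points past 2-fold are named; Mov10 at 2.18, Znfx1 at 1.85 and Helz2 at 1.73 are the highest, and the host gene Mcm7 at -1.37 is the lowest.

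Transcripts listed as microRNA hosts were examined as the input of the machinery. These are host genes or long noncoding RNAs, and their probes measure the host RNA and not the mature microRNA. The list includes Mirt1, at -0.25, and Mir99ahg, at -0.13, which had no annotated mature microRNA within their bounds in the reference used. The median over 21 hosts on both arrays, these included, was -0.06. Of the 21, 0 reached 2-fold higher and 1 reached 2-fold lower, against 4.57% and 1.78% of all genes. That host was Mcm7, a replicative helicase gene with miR-25, miR-93 and miR-106b inside its bounds, which had levels of 2.80 and 1.43 and was 2.59-fold lower. The Evl gene, with miR-342 inside its bounds, had a difference of 0.94. The pantothenate kinase genes Pank1 and Pank3, which hold miR-107 and a copy of miR-103, had -0.92 and -0.92, while Pank2 with the other miR-103 copy, named after its value was seen, had 0.16. The value of Pank1 was -0.34 with normexp. In human cancer cells, miR-103 and miR-107 are known to repress DICER1, whose mouse counterpart differed by 0.07 here. Mature microRNAs were not measured on these arrays. The mature strands below belong to Mcm7, Pank1 and Pank3, the hosts with the most negative differences. Those other than miR-25 are shown for their shared seeds, and miR-25 has a seed of its own among them. The sequences are from RefSeq, assembly GRCm38.p6, written from the 5′ end with the seed, bases 2 to 8, in capitals. On the minus strand of chromosome 5 they lie at chr5:138165574-138165596 (miR-93), chr5:138165787-138165807 (miR-106b) and chr5:138165332-138165353 (miR-25). The miR-103 copy in Pank3 lies at chr11:35782447-35782469 on the plus strand, and miR-107 at chr19:34820700-34820722 on the minus strand. The strands of miR-93 and miR-106b share 1 seed, and those of miR-103 and miR-107 share another.
miR-93-5p: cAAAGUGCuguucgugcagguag
miR-106b-5p: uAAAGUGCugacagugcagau
miR-25-3p: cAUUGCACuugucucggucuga
miR-103-3p: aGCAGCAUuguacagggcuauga
miR-107-3p: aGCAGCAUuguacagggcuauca

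Of 10 macrophage markers, 9 had a probe and all 9 were well above background on both arrays, while Cd68 had no matched probe. Of 21 markers of hepatocytes, T cells, B cells, fibroblasts, epithelial and endothelial cells, 17 were so with PBS and 14 with miR-122, among them Kdr, Cd3e and Cd4. Of the 5 hepatocyte markers, 3 were well above background with PBS and 2 with miR-122. Serpina1a and Cyp2e1 were so on both arrays and Ttr with PBS only, while Alb and Apoa1 were so on neither. The summed signal of the 21 markers was 2.14 with PBS and 2.23 with miR-122, on the log2 scale relative to the 75th percentile. That of the 9 macrophage markers was 8.54 and 8.67. Levels of different probes are not comparable, so each sum can only be set against itself between the arrays. The part of the 21 markers in the differences above was not tested.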

How the data were processed

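Total RNA of 2 RAW246.1 cultures was measured, 1 array per treatment, grouped by source name. The deposited scanner files hold spot intensities from Agilent Feature Extraction 11.0.1.1, background-subtracted and detrended but with no normalization between arrays, per the file headers. The deposited series matrix holds log2 values by the authors. The sources used here do not give how these were normalized. Both columns have a median of 5.17 and correlate across probes at 0.997 with the log2 signal of their own array, so the scale is log2 and genes are not centred. The member differences in these deposited values nearly equalled those of quantile normalization run here, as -0.39 for the brighter Ago2 probe under both. The authors' values are therefore not an alternative separate from quantile normalization.

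Control spots and flagged outlier spots were left out, log2 processed signals were averaged over the spots of a probe, and the 75th percentile of each array was subtracted. Unversioned accessions were looked up in RefSeq genes of GRCm38.p6, and 27232 of 39427 probes had an entry. Gene names, chromosomes and the bounds of the host genes were taken from there. The brightest probe that passed the background flag on 1 array or both stood for a gene. Signal errors are the scanner software's own. Members, lists and alternatives were chosen with earlier results of these data known. Named were all members with every probe, up to 4 genes with the largest absolute difference per list, and others said to be named after their values were seen; 1 gene that this rule takes is not reported here. With 1 array per group a fixed 2-fold size replaced a test, and precision is limited by the number of arrays. The counting code was checked on simulated data. Alternatives were median, quantile and loess scaling (span 0.3), normexp with an offset of 50 on median spot intensities, the authors' log2 values, the mean over probes, a looser or no limit for dim probes, flagged spots kept, and 1.5-fold and 4-fold thresholds. R 4.3.3 with limma 3.58.1, Python 3.11.15, numpy 2.4.6 and pandas 2.3.3 were used.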

Additional observations from a re-analysis of the deposited data

How the results depend on the processing

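With 1 array per group, the number of arrays limits every value, and signals near background, as for Dicer1, Ago3 and the dimmer Ago1 probe, limit those genes. No paired analysis was possible because each group has 1 sample and the groups share 1 replicate number. The count of 1 member probe past 2-fold, higher, and 0 lower was the same under every alternative run, 1.5-fold and 4-fold included. Every member probe passed the background flag on both arrays, so a looser or absent limit for dim probes could not change this count or any member value. The median over the member genes stayed below 0, between -0.33 and -0.02, under 9 alternatives. Mov10 lay between 2.01 and 2.18 under those 9, and between 1.98 and 2.39 within the scanner error. As it has a single probe, the mean over probes could not move its value either. Among the other members, the values that moved by more than the spread between probes were the mean over probes of Ago1, 0.12, and of Ago2, 0.01, and Ago3 with normexp, 0.11; the scanner error, an alternative added after seeing the data, set the dimmer Ago1 probe between 0.15 and 0.82. Apart from the scanner error, the signs of Dicer1, the dimmer Ago4 probe, Ago1, Ago2 and Ago3 turned under at least 1 alternative. Within the scanner error, those of the brighter Drosha probe, Dicer1, Ago3 and both Ago4 probes turned, with Drosha between -0.24 and 0.17 and the brighter Ago4 probe between -0.30 and 0.10.

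Over all probes, 1089 reached 2-fold higher and 355 reached 2-fold lower. Higher were 581 with normexp, 2673 without a filter on dim probes, 3097 at 1.5-fold and 199 at 4-fold. Lower were 625 with median scaling, 165 with normexp, 567 with probes well above background on at least 1 array, 787 with no filter, 1302 at 1.5-fold and 21 at 4-fold. Silencing effectors past the threshold and higher, 2 at 2-fold, were 1 with median scaling and 1 with normexp, 6 at 1.5-fold and 0 at 4-fold. At 4-fold 0 Dicer partners and 0 Mov10-like helicases were higher and 0 hosts lower. At 1.5-fold 1 microprocessor cofactor and 1 helicase were lower, and 3 hosts were higher and 5 lower. Hosts at least 2-fold lower were 3 with median scaling and 2 each with quantile normalization, loess and the authors' log2 values. The signs of the medians of the cofactor, Dicer partner, silencing effector and host lists turned under at least 1 alternative. The cause of these changes was not tested.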
